A study of Mus musculus with 2 samples.

Results

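T cells made up 144 of the 13432 cells in the data, 71 of 6354 in the library labelled WT and 73 of 7078 in the library labelled KO. They were chosen by measured values: a cell was taken as a T cell when at least 2 of the 3 genes Cd3e, Cd3d and Cd3g, which encode the CD3 chains of the T cell receptor complex, had a UMI (unique molecular identifier, 1 captured RNA molecule), and when Pdgfra, Cdh5, Cd79a and C1qa, which mark fibro-adipogenic progenitors (FAPs), endothelial cells, B cells and macrophages, all had none. Levels of these genes in T cells are therefore no finding.

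The study injured the gastrocnemius muscle of mice with cardiotoxin (CTX), a snake venom toxin that destroys muscle fibers, to ask how GSDME, a pore-forming protein of pyroptotic cell death, acts in repair. The group WT-CTX came from WT mice (C57BL/6J) and the group GSDME-KO-CTX from mice with a global KO of Gsdme, a deletion not limited to T cells. Male mice were used, 5 per genotype, on day 14 after the injury; their age and whether the animals were pooled are not given in the sources used here. The dissected muscle was digested with enzymes, the labels name no sorting step, and 1 library per genotype was made with a Chromium 5′ kit. There was no replicate library, so no value below carries a test between genotypes, and every interval covers 95% of the counting error of these 2 libraries only. Gsdme was read at 5.04 CPM (UMIs per 1000000 UMIs) in the other cells of the WT-labelled library and at 4.65 CPM in those of the KO-labelled library, and at 1 and 2 UMIs in T cells, so the counts of Gsdme did not separate the labels.

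T cells recognise antigen through a receptor built from an alpha and a beta chain or from a gamma and a delta chain, joined to CD3. Alpha-beta T cells comprise CD8+ killer cells, CD4+ helper cells and FOXP3+ regulatory T cells (Tregs), which in injured muscle are known to release amphiregulin and to aid regeneration. Gamma-delta T cells leave the thymus early in life and settle in tissues, and the type that carries the Vgamma6 and Vdelta1 segments makes IL-17A on stimulation by IL-1, IL-23 and IL-18.

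The share of T cells was 1.12% (95% exact binomial interval 0.874 to 1.41) in the WT-labelled library and 1.03% (0.809 to 1.30) in the KO-labelled library. The difference of -0.0860 percentage points had an interval from -0.451 to 0.273, so no difference in the T cell share was detectable at this depth. T cells held a median of 4295 UMIs (range 2121 to 19013) in the WT-labelled library and 4165 (2091 to 37495) in the KO-labelled library, 348803 and 410936 UMIs in all. All 3 Cd3 genes were detected in 52 and 48 T cells, and exactly 2 in 19 and 25, with a median of 6 and 7 Cd3 UMIs per cell. Just outside the rule, 8 and 10 cells had 1 of the 3 genes, with a median of 1 Cd3 UMI in each library. A UMI of Trac, Trbc1, Trbc2 or Trdc was present in 2 of these 8 and 9 of these 10, so the rule's edge was not alike in the libraries. With at least 1 Cd3 gene as the rule, the difference in the T cell share was -0.0707 points (-0.456 to 0.309). A further 11 and 10 cells met the Cd3 part but had Pdgfra, Cdh5, Cd79a or C1qa. The libraries shared 4 cell barcodes, of which 0 were T cells.

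Genes that the rule did not use bore out the name. Trbc2, a constant segment of the beta chain, was read at 1018 CPM in T cells of the WT-labelled library and at 1363 CPM in those of the KO-labelled library, against 2.52 CPM over all other cells. Trbc1 and Trbc2 are nearly identical, so reads may be split between them. The 15 genes with the highest ratio of T cells to all other cells (1 CPM added) were Trbc2, Trdc, Cd163l1, Trac, Pdcd1, Cd8b1, Sh2d2a, Ms4a4b, Bcl11b, Trgc1, Cd8a, Nkg7, Lat, Cd5 and Cxcr6. They include constant segments of both receptor types, the CD8 co-receptor, the adaptor LAT, the inhibitory receptor PD-1 (Pdcd1) and the T lineage factor BCL11B. Nkg7 and Ms4a4b were also read in natural killer (NK) cells, at 1658 and 1906 CPM for Nkg7 in the WT-labelled and KO-labelled library. Sh2d2a was at 211 and 627 CPM in NK cells. Trbc2 was at 130 and 277 CPM there, in 60.0% and 33.3% of the cells, so it was not particular to T cells. Trdc, Pdcd1, Lat and Cxcr6 were read in NK cells at lower levels than in T cells. Cd163l1, Trac, Bcl11b and Trgc1 had no UMI in the 28 NK cells. A UMI of Trac, Trbc1, Trbc2 or Trdc was present in 71 of 71 T cells of the WT-labelled library and in 72 of 73 of the KO-labelled library.

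T cells were then divided by the genes detected in them, in this order: gamma-delta-like cells had Trdc, the delta chain constant segment, without Trac, the alpha chain constant segment; Treg-like cells had Foxp3; CD8-like cells had Cd8a or Cd8b1 without Cd4; and Cd4+ cells had Cd4 without Cd8a or Cd8b1. Gamma-delta-like cells numbered 23 of 71 in the WT-labelled library, or 32.4% (21.8 to 44.5), and 6 of 73 in the KO-labelled library, or 8.22% (3.08 to 17.04). The intervals of the 2 libraries did not overlap, and the difference was -24.2 points (-37.4 to -10.4). CD8-like cells numbered 17 (23.9%) and 29 (39.7%), a difference of 15.8 points with an interval from -0.394 to 31.1. The difference was 2.32 points (-10.9 to 15.4) with each T cell thinned to 1000 UMIs, and 7.87 points (-11.5 to 26.2) among the T cells that were not gamma-delta-like. Treg-like cells numbered 3 and 5, Cd4+ cells 9 and 13, and cells with none of these patterns 19 and 20. The interval of the difference included 0 for these groups too, and no T cell had Cd4 together with Cd8a or Cd8b1.

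**Figure D1:**
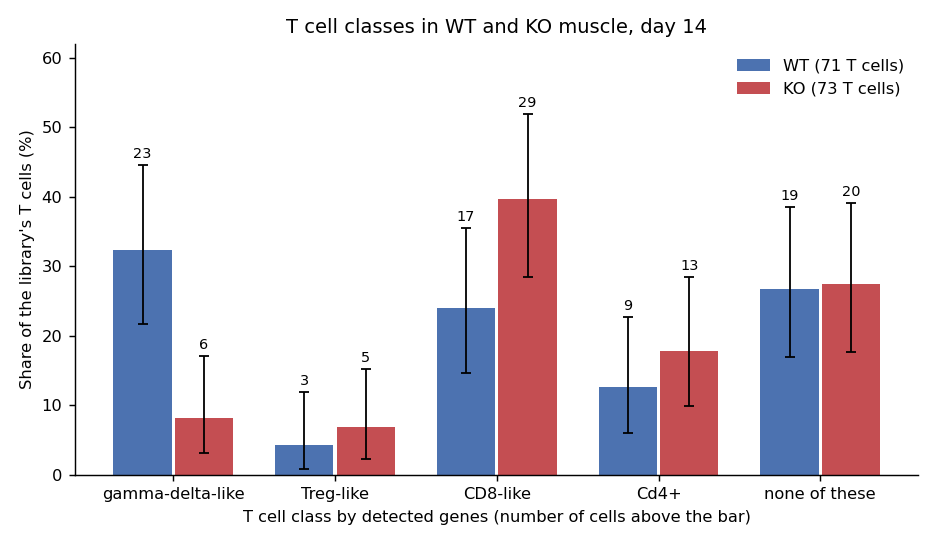
Bars give the percentage of each library's T cells in each class, blue for WT (71 T cells) and red for KO (73 T cells), with 95% exact binomial intervals and the number of cells above each bar. Gamma-delta-like cells were 23 and 6, with intervals that did not overlap, and the intervals of every other class overlapped.

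The number of gamma-delta-like cells was lower in the KO-labelled library under each of the following counts. As a share of all cells they made up 0.362% (0.230 to 0.543) and 0.0848% (0.0311 to 0.184). Cells counted by Cd163l1, a scavenger receptor of IL-17-committed gamma-delta T cells, were 25 and 7 of the T cells, and those with at least 2 UMIs of Trdc and no Trac were 22 and 5. With Trac left out of the definition the counts were 27 and 7. After each T cell was thinned to 2000 UMIs, a depth that every T cell had, they were 23 and 7. Over the whole table and without the Cd3 rule, 30 cells of the WT-labelled library and 8 of the KO-labelled library had a UMI of Cd163l1, 20 and 8 had Trdv4, and 7 and 1 had Trgv6. Trdc itself was read in 49 and 29 cells of the whole table, 40.0% and 11.1% of NK cells among them, and in 0.310% and 0.174% of FAPs, which serve as the background for a T cell gene at a median of 8020 and 8608 UMIs per cell. In droplet data fewer cells of a type and a lower yield of that type from the tissue cannot be told apart.

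Variable segments of the receptor were read in these cells. Trdv4 encodes the segment with the older name Vdelta1. It lies on mouse chromosome 14, and the end of its coding exon, exon 2, is shown. Of the 5 receptor variable genes named, Trdv4 was detected in the most gamma-delta-like cells, though not in all. The class itself was drawn by Trdc without Trac. The stretch chr14:54075366-54075515 (GRCm38, plus strand, GENCODE annotation) is coding, and the capitals mark the last in-frame cysteine codon, after which the CDR3 loop that contacts ligands is joined:
Trdv4: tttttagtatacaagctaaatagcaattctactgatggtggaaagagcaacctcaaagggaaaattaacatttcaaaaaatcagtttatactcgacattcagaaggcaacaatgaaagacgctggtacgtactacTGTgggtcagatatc

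Trdv4 was detected in 15 of 23 gamma-delta-like cells of the WT-labelled library, with 0 to 10 UMIs per cell, and in 3 of 6 of the KO-labelled library, with 0 to 3. It had no UMI in the 8 Treg-like, 46 CD8-like and 22 Cd4+ cells, and it was read in 2 and 1 of the cells without a pattern. Trgv6, the Vgamma6 segment that pairs with it in IL-17-producing gamma-delta T cells, was detected in 6 of 23 and 1 of 6 gamma-delta-like cells and in no other T cell. At least 1 of the pair was present in 17 of 23 and 3 of 6. Other gamma segments were rare among gamma-delta-like cells: Trgv5 was read in 1 cell of each library and Trgv2 in 2 and 0. The table names 5 receptor variable genes in all, so other receptors could not be counted, and a cell without a UMI of a segment may still use it.

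Gamma-delta-like cells of both libraries shared the program of IL-17-committed cells. Cd163l1 was detected in 22 of 23 and 6 of 6, with a median of 9.23 and 10.1 UMIs per 10000 UMIs of the cell. Trgc1, the gamma chain constant segment, was detected in 19 and 6 cells and Blk, a kinase of gamma-delta type 17 cells, in 17 and 4. Maf, a factor needed for the type 17 lineage, was detected in 18 and 6 cells. Il7r, the receptor for the survival cytokine IL-7, was detected in all 29, with a median of 9.54 and 10.9 per 10000, and Tmem176a in 21 and 6, with 10.8 and 12.3. The ranges of Cd163l1, Il7r and Tmem176a overlapped between the libraries.

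The same cells carried receptors for the cytokines that activate them. Il1r1, the IL-1 receptor, was detected in 11 of 23 and 5 of 6, Il18r1, the IL-18 receptor, in 16 of 23 and 6 of 6, and Il23r, the IL-23 receptor, in 6 and 1. The median of Il18r1 was 2.24 UMIs per 10000 (0 to 13.6) in the WT-labelled library and 8.08 (3.69 to 18.4) in the KO-labelled library. The difference in the share of cells with Il18r1, 30.4 points, had an interval from -18.6 to 52.9. Il18rap, the second chain of that receptor, was detected in 6 of 23 and 0 of 6. The tissue-homing receptors Cxcr6 and Ccr2 were detected in 19 and 18 of the 23 cells and in 5 and 5 of the 6. Genes of killer cells were nearly absent, since Nkg7 and Ccl5 were each detected in 1 of 23 and 0 of 6, against 17 and 16 of 17 and 27 and 27 of 29 CD8-like cells.

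**Figure D2:**
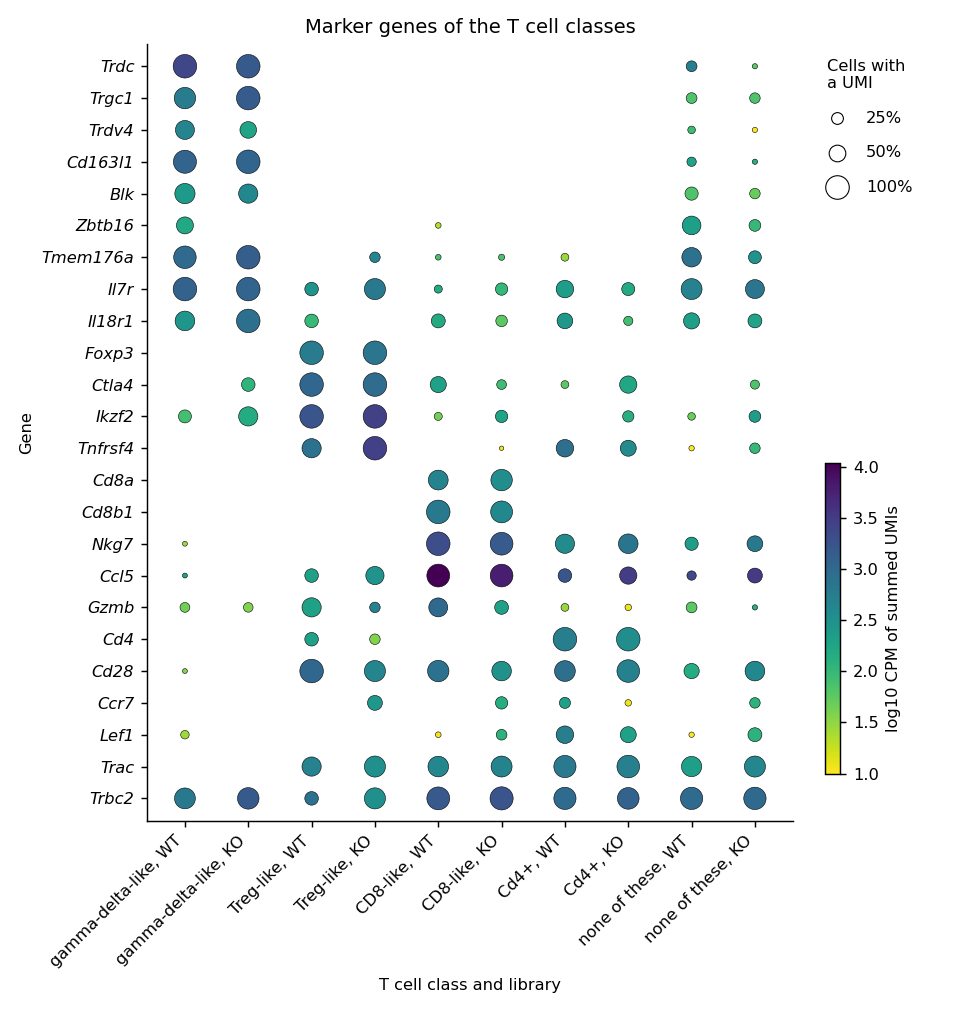
Each dot gives a gene in a T cell class and library, its area the percentage of cells with a UMI and its color the log10 CPM of the summed UMIs, with no dot where no UMI was read. Trdv4 and Cd163l1 appear in the gamma-delta-like columns and in few of the cells without a pattern, and Nkg7 and Ccl5 lead in CD8-like cells. Trdc, Trac, Foxp3, Cd8a, Cd8b1 and Cd4 drew the classes and are no result there.

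Within gamma-delta-like cells a few genes differed between the libraries. Zbtb16, which encodes PLZF, a factor of innate-like T cells, was detected in 12 of 23 cells of the WT-labelled library and in 0 of 6 of the KO-labelled library, a difference of -52.2 points (-73.2 to -1.43). The interval of the 0 of 6 cells reached 45.9%. Ltb, the cytokine lymphotoxin beta, was read at 118 UMIs in 19 of 23 cells and at 9 UMIs in 3 of 6, with a median of 10.2 UMIs per 10000 (0 to 36.6) and 1.54 (0 to 9.45). The share of cells with Ltb differed by -32.6 points, with an interval from -72.8 to 11.2.

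Il17a, the effector cytokine of these cells, ran the other way. It was read at 4 UMIs in 2 of 23 gamma-delta-like cells of the WT-labelled library, 2 UMIs in each. In the KO-labelled library it was read at 84 UMIs in 3 of 6, which held 45, 34 and 5 UMIs of cell totals of 5425, 2719 and 4233. Outside the gamma-delta-like cells, T cells with Il17a held 1 UMI in 1 cell of the WT-labelled library and 1 and 2 UMIs in 2 cells of the KO-labelled library, all without a class pattern. The summed level thus rested on 2 cells, and the share of gamma-delta-like cells with Il17a differed by 41.3 points with an interval from -1.50 to 80.2. Il17f had no UMI in gamma-delta-like cells.

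**Figure D3:**
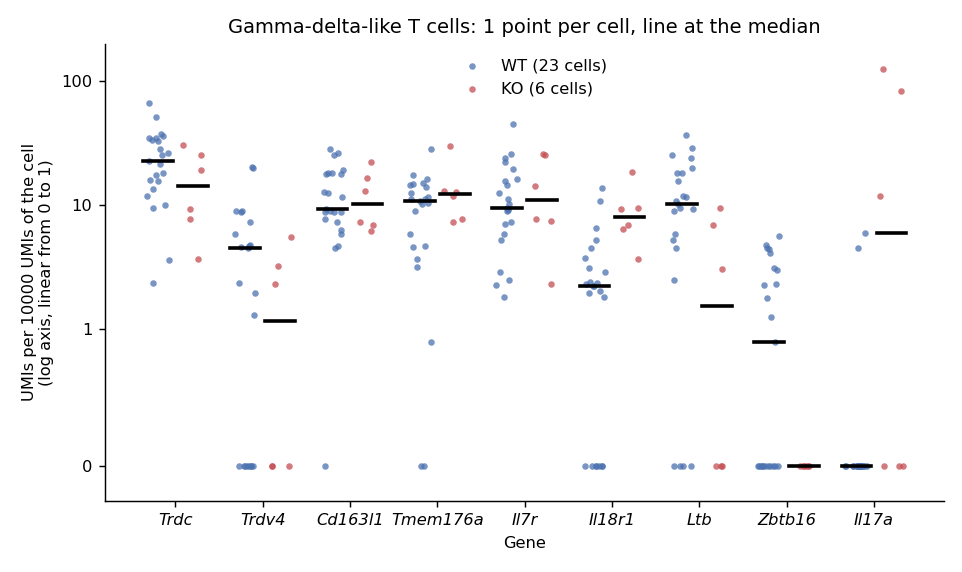
Each point is 1 gamma-delta-like cell (23 WT in blue, 6 KO in red), placed by its UMIs of a gene per 10000 UMIs on a log axis that is linear from 0 to 1, with black lines at the medians. Cd163l1, Tmem176a and Il7r overlapped between the libraries, Zbtb16 lay at 0 in all 6 KO cells, and Il17a reached 125 in 1 KO cell.

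CD8-like cells were led by cytotoxic and NK-type receptor genes. Against the other T cells, with 10 CPM added, the genes highest in them were Plac8, Bend4, Gzmb, Prf1, Plek, Nkg7, Klrc1, Ms4a4b, Klrd1 and Ccl5, although 69.6% of the Plac8 UMIs in them came from 1 cell. Nkg7, a protein of cytotoxic granules, was detected in 17 of 17 cells of the WT-labelled library and 27 of 29 of the KO-labelled library. The chemokine Ccl5 was detected in 16 and 27, and the granule protein gene Ctsw in 13 and 19. These genes were present in most CD8-like cells of both libraries.

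Of the genes of naive and central memory T cells, Ccr7 was read in CD8-like cells of the KO-labelled library only, a difference that rested in part on cells with RNA of other types. Ccr7, the chemokine receptor that guides T cells to lymph nodes, was detected in 0 of 17 cells (0% to 19.5%) and in 8 of 29, or 27.6% (12.7 to 47.2), a difference of 27.6 points (3.07 to 47.2). Of its 25 UMIs in these cells, 17 lay in CD8-like cells with over 1% of their UMIs from the markers of another cell type. Without such cells, here called mixed, Ccr7 was in 0 of 16 and 5 of 26, and the difference of 19.2 points had an interval from -4.95 to 39.4, which included 0. Dapl1 was detected in 0 and 5 cells, Igfbp4 in 0 and 4, and Lef1, a factor of naive T cells, in 1 and 6. Tcf7 was detected in 4 of 17 and 8 of 29, and S1pr1, the receptor for exit from tissue, in 4 and 11. For each of these other genes the interval of the difference included 0. Ccr7 was read in 68.4% and 74.5% of B cells and in 0.155% and 0.0581% of FAPs. The B cell marker Ms4a1 was at 0 in T cells, as was Cd79a by the rule. Other B cell markers were not: the list of 9 summed to 13 UMIs in 10 T cells and 44 UMIs in 25. Ighm of that list, at 5 UMIs in 5 T cells and 26 in 17, was called higher in the KO-labelled library. Without the mixed cells it was at 1.96 (0.52 to 3.71) and still called. The mixed CD8-like cells of the KO-labelled library held 8, 5 and 4 UMIs of Ccr7. In that order they were led by markers of dendritic cells, of FAPs and of pericytes and smooth muscle.

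The granule effectors did not move together. Gzmb, a protease that killer cells inject into targets, was read at 94 UMIs in 11 of 17 CD8-like cells of the WT-labelled library and at 35 UMIs in 10 of 29 of the KO-labelled library, a difference in the share of cells of -30.2 points (-57.0 to 2.79). Prf1, the pore protein perforin, was detected in 3 of 17 and 11 of 29, a difference of 20.3 points (-10.7 to 44.5). Gzmk was detected in 4 and 5 cells. Each of these intervals included 0.

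**Figure D4:**
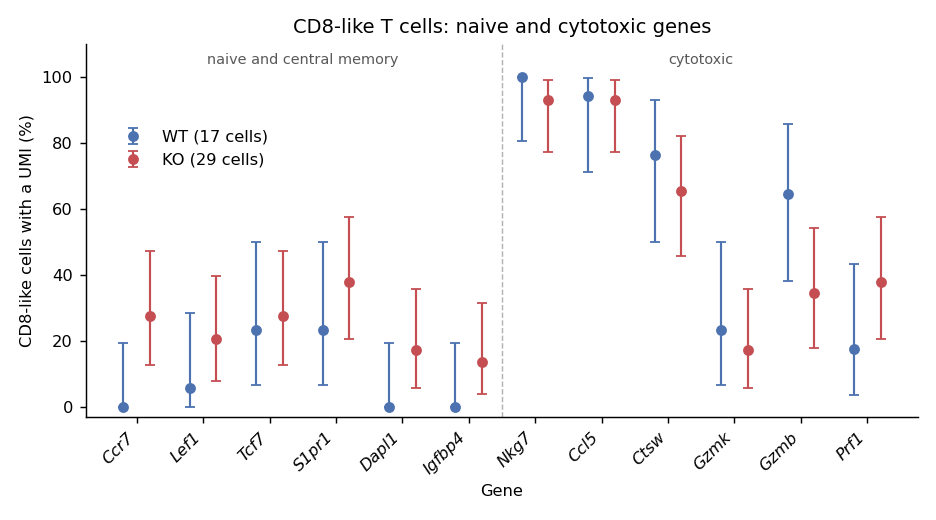
Points give the percentage of CD8-like cells with a UMI of each gene (17 WT cells in blue, 29 KO cells in red) with 95% exact binomial intervals; naive and central memory genes stand left of the dashed line and cytotoxic genes right of it. Ccr7 was detected in 0 WT and 8 KO cells, and Nkg7 and Ccl5 in nearly all cells of both libraries.

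Treg-like cells were few, 3 in the WT-labelled and 5 in the KO-labelled library, and carried the known genes of tissue Tregs. Ikzf2, the factor Helios, was detected in all 8, and so was Ctla4, an inhibitory receptor. Il1rl1, the IL-33 receptor ST2 of tissue Tregs, was detected in 2 of 3 and 3 of 5 and in no other T cell, and Klrg1, a receptor of terminally differentiated cells, in 2 and 3. Tnfrsf4, which encodes OX40, was detected in 2 and 5. Areg, which encodes amphiregulin, was read at 0 UMIs in 3 cells and at 18 UMIs in 3 of 5, with 16 of the 18 in 1 mixed cell. The suppressive cytokine Il10 had no UMI in Treg-like cells, and its 11 UMIs in T cells came from 1 Cd4+ cell of the KO-labelled library. With 10223 and 26815 UMIs in the class, absence of a gene from the 3 cells of the WT-labelled library says little about its level.

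Cd4+ cells numbered 9 and 13. The genes that led them against other T cells, Ifng, Atic, Dusp4, Lef1, Ipo8, Slamf6, Cd5, Tmem65, Tbc1d4 and Tnfrsf4, held none of Zbtb7b, Cd40lg, Cd28 and Icos, the further markers of helper T cells, so levels in them are not compared between libraries. Cd28, the costimulatory receptor, was detected in 7 of 9 and 12 of 13, Icos in 6 and 8, and Cd40lg in 0 and 3. Of the Ifng UMIs in them, 57.1% came from 1 cell.

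The 19 and 20 cells without a class pattern were no empty droplets, with a median of 4427 and 4548 UMIs. Trac was read in 14 and 16 of them, and 4 and 1 held Trdc together with Trac. Zbtb16 was detected in 12 of 19 and 5 of 20, Tmem176a in 13 and 6, and Cd163l1 in 3 and 1. Their leading genes against other T cells were Lmo4, Zbtb16, Ramp3, Abl1, Prkd3, Ifngr2, Hk2, Gsn, Cnnm2 and Ramp1, and 80.5% of their Gsn UMIs came from 1 cell. Genes of innate-like T cells were therefore not confined to the gamma-delta-like class. Proliferating cells, with both Mki67 and Top2a, were 6 and 4 over all T cells.

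Levels were also compared over all T cells from the UMIs summed per library. A gene was called when its share of UMIs differed at least 2-fold and the exact interval of the log2 ratio of KO over WT excluded 0. Of 5065 genes with at least 20 UMIs, 219 (4.32%) were called higher in the KO-labelled library and 252 (4.98%) lower, with a median log2 ratio of -0.01. Calls follow counting error alone, and a few cells can carry them. In all, 4 T cells held over 15000 UMIs, 3 of them in the KO-labelled library with 22.4% of its T cell UMIs, and they are called large cells here. Calls that were lost without the large, the mixed or the gamma-delta-like cells are given beside the lists for many genes, not for all.

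The gamma-delta and type 17 genes were mostly lower, as their cells were. Of 4 gamma-delta receptor genes tested, Trdc, Trgc2 and Trgc4 were called lower and none higher, with a median log2 ratio of -1.59, and Trgc2 was not called without the large cells (-0.76) or without the mixed cells (-0.99). Trgc1 and Trgc2 are closely alike, so reads may be split between them. The CPM of Trdc were 935 and 114 (log2 ratio -3.03, -3.50 to -2.59), and those of Trdv4 were 172 and 14.6 (-3.56, -5.06 to -2.35). Of 9 type 17 genes, 5 were called lower: Cd163l1 (log2 ratio -2.04), Tmem176b (-2.02), Il1r1 (-1.63), Tmem176a (-1.37) and Blk (-1.32). Il17a alone was called higher, at 14.3 and 212 CPM, on the cells described above. It was not confined to T cells: all other cells held 1 UMI in 1 cell of the WT-labelled library and 40 UMIs in 2 cells of the KO-labelled library. Of 5 innate-like T genes tested, Slamf1, Fcer1g and Xcl1 were called higher and Zbtb16 lower, with a list median of 1.29. Without gamma-delta-like cells Fcer1g alone of these was called higher, and without the mixed cells Slamf1 and Xcl1. Without the large cells Slamf1 and Fcer1g were called higher. Zbtb16 was called lower in each setting.

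Without the gamma-delta-like cells, 174 of 4493 genes (3.87%) were called higher and 204 (4.54%) lower. Of the type 17 genes, Cd163l1, Tmem176a and Tmem176b were called lower. The Cd163l1 UMIs that remained, 19 and 13, lay in 3 and 1 cells without a class pattern. Those cells all held Trdc together with Trac, so the Cd163l1 call still rested on cells with Trdc. Tmem176b was at -1.75 (-2.36 to -1.17), and Zbtb16 at -1.96 (-3.19 to -0.84), while Ltb, at -1.35 over all T cells, was at -0.60 (-1.07 to -0.13) and no longer called. Il18r1 was at -1.05 (-1.72 to -0.39) without these cells and at -0.65 (-1.16 to -0.13) with them.

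Among Treg genes 7 of 10 tested were called higher in the KO-labelled library and none lower. The median log2 ratio was 1.38 beside the -0.01 of all genes, and its interval over the list's genes, -0.30 to 2.72, included 0. The called genes were Foxp3, Ikzf2, Tnfrsf18, Tnfrsf4, Il1rl1, Areg and Klrg1. Ikzf2 was read at 36 UMIs in 14 cells and 145 UMIs in 25 cells, a log2 ratio of 1.77 (1.24 to 2.34), and the GITR gene Tnfrsf18 at 43 UMIs in 17 cells and 105 in 40, a ratio of 1.05 (0.53 to 1.60). Klrg1 was read at 4 UMIs in 3 cells and 31 in 11, a ratio of 2.72 (1.22 to 4.68). Ikzf2 and Tnfrsf18 were thus read well beyond the 8 Treg-like cells, Tnfrsf18 in 6 of 17 and 17 of 29 CD8-like cells. Without gamma-delta-like cells 3 of the 7, Ikzf2, Il1rl1 and Klrg1, were called, and without the mixed cells the same 3, while Capg, another gene of the list, was then called lower. The list median was 0.97 (0.10 to 2.26) and 0.87 (-0.53 to 2.07) in these 2 settings, and Areg was at 0.11 without the mixed cells.

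Of 9 genes of naive and central memory T cells, 2 were called higher, Ccr7 and Dapl1, and none lower, with a list median of 0.09. Ccr7 was read at 7 UMIs in 2 cells and 45 UMIs in 15 cells, a log2 ratio of 2.45 (1.29 to 3.84). Of the 45 UMIs, 23 lay in 4 mixed cells, and the ratio was 1.47 (0.19 to 2.94) without the mixed cells and 1.48 as a mean over cells. Dapl1 had too few UMIs to be tested without the mixed or the large cells. Among 16 cytotoxic genes Prf1, Ifng and Gzma were called higher and Gzmb lower at -1.01 (-1.49 to -0.55), with a list median of 0.43. Without gamma-delta-like cells Prf1 and Ifng were not called and the list median was 0.018. Gzmb was not called without the large cells, at -0.26 (-0.76 to 0.24), or without the mixed cells, at -0.92. The 157 Gzma UMIs of the KO-labelled library lay in 1 cell without a class pattern, and 37.0% of the Ifng UMIs in 1 cell. For T cell receptor signalling 2 of 22 were called higher, Ubash3a and Sh2d2a, and none lower, with a list median of 0.53. Without gamma-delta-like cells Ubash3a alone was called and the median was 0.17. Of the receptor chains that the rule did not use, Trac was at 0.79 (0.41 to 1.17), and Cd247, the zeta chain, at -0.97 (-1.52 to -0.44) and, without gamma-delta-like cells, called lower at -1.20 (-1.89 to -0.53).

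**Figure D5:**
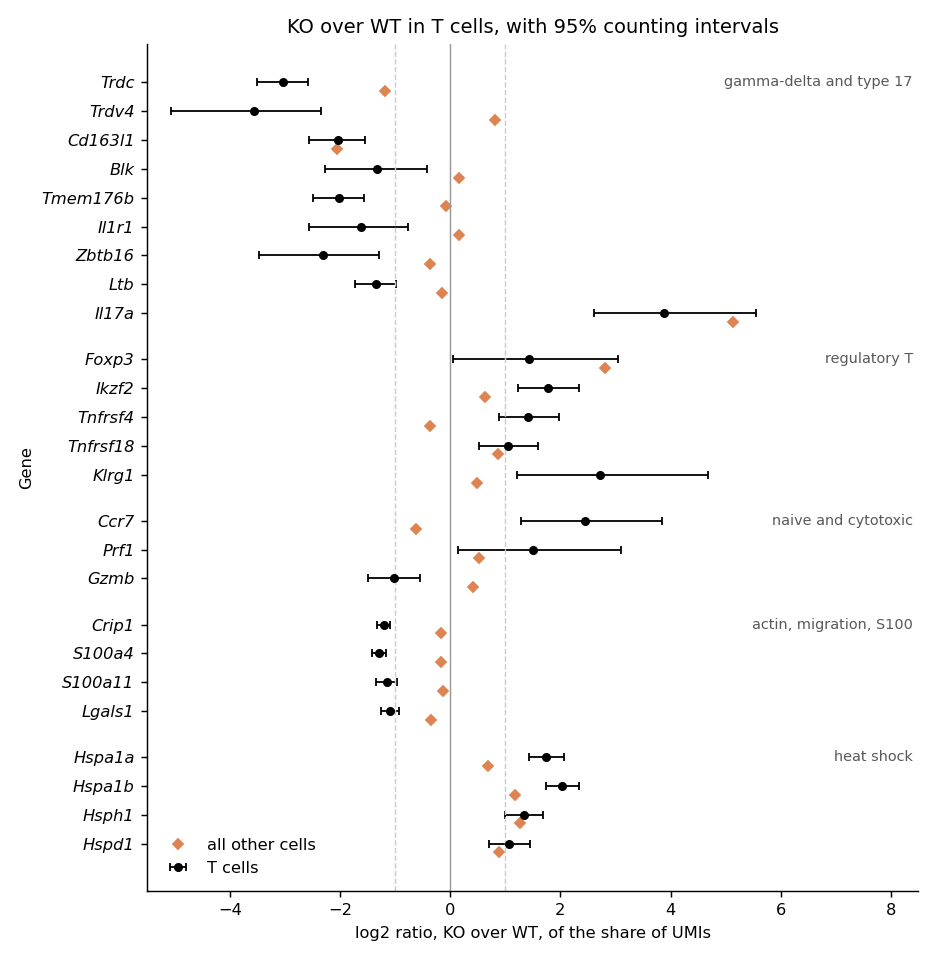
Black points give the log2 ratio of KO over WT in T cells with 95% counting intervals, and orange diamonds the ratio in all other cells, which include other immune cells; dashed lines stand at 2-fold. Crip1, S100a4, S100a11 and Lgals1 lay near -1 in T cells and between -0.35 (Lgals1) and -0.12 (S100a11) in the other cells. Heat shock genes lay above 0 in both.

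Of 20 genes of actin, migration and the S100 family, 4 were called lower in T cells of the KO-labelled library and none higher, with a list median of -0.29. They were S100a4 and S100a11, which encode calcium-binding proteins, the LIM domain gene Crip1 and the lectin gene Lgals1. S100a4, which binds myosin and marks memory and effector T cells, was read at a median of 36.0 UMIs per 10000 (0 to 147) in the 71 cells of the WT-labelled library and 15.1 (0 to 87.0) in the 73 of the KO-labelled library, a log2 ratio of -1.30 (-1.43 to -1.17). Crip1 had a median of 42.4 (0 to 209) and 13.4 (0 to 132), a ratio of -1.21 (-1.33 to -1.09). Lgals1, which encodes galectin-1, was at -1.09 (-1.25 to -0.93), and S100a11 at -1.15 (-1.34 to -0.97). No cell held more than 4.57% of the UMIs of any of the 4, and the ranges of the libraries overlapped.

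The same 4 genes were lower without the gamma-delta-like cells, at -1.21 for S100a4, -1.24 for Crip1, -1.17 for Lgals1 and -1.04 for S100a11. Without the mixed cells Lgals1 was at -0.99 and no longer called. In all other cells of the table they were at -0.17, -0.17, -0.35 and -0.12. In CD8-like cells S100a4 was read in 16 of 17 and 19 of 29 cells.

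Heat shock genes were higher, in T cells and elsewhere. Of 14 tested, 5 were called higher in the KO-labelled library and none lower, with a list median of 0.71: Hspa1a, Hspa1b, Hsph1, Hspd1 and Hspe1, which encode inducible and mitochondrial chaperones. Without gamma-delta-like cells Hspa1a, Hspa1b and Hsph1 were called, Hspd1 and Hspe1 stood at 0.94 and 0.70, and the list median was 0.48. Hspd1 was not called without the large cells either, at 0.97. Hspa1b was detected in 21 of 71 and 37 of 73 T cells, with a highest level of 98.6 and 347 UMIs per 10000 and a log2 ratio of 2.03 (1.73 to 2.33). Hsph1 was detected in 30 and 52 cells, with a ratio of 1.33 (0.99 to 1.69). In all other cells of the table Hspa1b was at 1.18, Hsph1 at 1.26 and Hspa1a at 0.69.

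Receptors and ligands of immune signals gave few calls. Of 24 cytokine receptors, Il1rl1, Il6st and Tnfrsf1b, which encodes TNF receptor 2, were called higher and Il1r1 and Tgfbr3 lower, with a list median of -0.10. Without gamma-delta-like cells Il1rl1 and Il6st were called higher and Il18r1 lower. Tgfbr3 had too few UMIs to be tested without the large, the mixed or the gamma-delta-like cells. Of 12 cytokines and secreted ligands, Ifng, Il17a, Areg and Xcl1 were called higher and Ltb and Tnfsf11, the gene of RANKL, lower, with a list median of 0.19. Without gamma-delta-like cells none of these was called higher, Tnfsf11 alone was called lower, at -3.20, and the median was -0.056. Xcl1 was at 0.22 without the large cells. Of 16 chemokine and trafficking receptors Ccr7 alone was called. The CPM of Cxcr6 were 467 and 324 (log2 ratio -0.53, -0.87 to -0.19), and those of Ccr2 were 284 and 270.

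Of 25 interferon response genes tested, Ifi47 was called higher and Isg15 lower, and the list median was 0.26. Isg15, a ubiquitin-like protein induced by type I interferon, was read at 48 UMIs in 25 cells and 19 UMIs in 13 cells, a ratio of -1.57 (-2.42 to -0.78), and at -1.44 in all other cells. Of 36 immediate-early genes Nfkbid and Rel were called higher and Klf4 lower, but Rel was not called without the large, the mixed or the gamma-delta-like cells, nor Klf4 without the mixed or the gamma-delta-like cells. Gsdmd, the gasdermin of inflammasome pyroptosis, was read at 9 and 6 UMIs and Il18 at 0 in both libraries. Il1b was read at 1 UMI and 113 UMIs, with 66.7% of them in 1 cell, and at 1 and 3 UMIs without the mixed cells.

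The named genes with the lowest and highest ratios differed in how the rest of the library moved. Tpm3-rs7, a gene with sequence close to tropomyosin 3, had the lowest ratio of those named: it was read at 94 UMIs in 45 of 71 T cells of the WT-labelled library and at 0 in 73 of the KO-labelled library, at least 36.9-fold lower (floor of 3 UMIs over the library's T cells). All other cells gave 273 and 5.98 CPM, a log2 ratio of -5.51. Nr1d1, a repressor of the circadian clock, was read at 39 UMIs in 21 T cells and at 3 in 3, a ratio of -3.94 (-6.28 to -2.28), and stood at -0.61 in the other cells. Cnnm2 was at -3.30 (-5.67 to -1.58) in T cells and at -0.02 in the other cells, and Acpp at -3.04 (-5.43 to -1.30) and 0.31, and Acpp had 3 and 2 UMIs without the gamma-delta-like cells. Among the highest were Dkc1 at 2.99, Nfkbid at 2.64, Nudt5 at 2.57, Gm19585 at 2.57, Tank at 2.50 and Snhg6 at 2.50. Without the large cells Dkc1, Nudt5 and Snhg6 had too few UMIs to be tested and stood at 1.79, 1.05 and 1.46, each with an interval that included 0. Of these Tank, an adaptor of the NF-kB and interferon pathways, was read in 6 and 24 cells and Gm19585 in 3 and 20.

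RNA of other cell types was present in some T cells and moved with some of these values. Over 1% of the UMIs came from another type's markers in 4 cells of each library, and Scrublet called 0 T cells as doublets. FAP and fibroblast markers summed to a median of 8.15 UMIs per 10000 (1.01 to 760) and 6.56 (0 to 249), with 7 of 8 markers present and Pdgfra at 0 by the rule. Col1a1, at -3.53, and Col1a2, at -3.35, held 70.2% and 68.0% of their UMIs in 1 cell, and Serpinf1 and C3, also among the lowest ratios, 64.0% and 58.6%. Without the 8 cells Col1a1 was at -1.21 and Col1a2 at -0.41, and Serpinf1 and C3 had too few UMIs to be tested. The 8 cells were picked by the summed UMIs of such marker lists. Fewer UMIs of listed markers without them therefore follow in part from that choice.

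Dendritic cell markers summed to a median of 0 in both libraries, with highest values of 157 and 476 per 10000, and Flt3 and Clec9a were at 0. All 5 tested, Cd74, H2-Aa, H2-Ab1, H2-Eb1 and Cd209a, were called higher in the KO-labelled library, and H2-Ab1 led the named genes at 4.07. Its UMIs lay 62.1% in 1 cell. Without the 8 cells it had 3 and 12 UMIs, too few to be tested, and stood at 1.82 (-0.07 to 4.28). H2-Aa, H2-Eb1 and Cd209a also had too few UMIs to be tested then. Cd74 alone was called higher, on 6 and 19 UMIs, at 1.48 (0.10 to 3.09). The 8 cells were picked in part by these markers, so fewer UMIs without them follow in part from that choice. Of the muscle genes Ckm was at 1.50 and Mylpf at 1.64 in T cells, and at 1.58 and 2.05 in the other cells.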

How the data were processed

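Single-cell RNA of injured gastrocnemius muscle was measured in 1 library labelled WT and 1 labelled KO. The authors aligned and counted reads with Cell Ranger (the submitters' processing notes give version 2.1.1 and build mm10, while the methods name a later version), processed them in Seurat, removed doublets with DoubletFinder and filtered cells by mitochondrial share. The deposited values, 1 table of 19169 genes by 13432 cells, are the natural log of 1 plus UMIs per 10000 UMIs of the cell. UMIs were recovered by undoing the log and scaling each cell so that its values became whole (largest distance 0.256 UMI over 29528482 values), a step checked on simulated cells. The cell barcode's ending names the library.

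T cells, classes and lists were chosen with earlier results of these data known. Levels are summed UMIs per 1000000 (CPM) with exact Poisson intervals, log2 ratios have an interval from the exact binomial share of UMIs, shares carry exact Clopper-Pearson intervals and their differences combine the pair (Newcombe), all counting error only. Named genes are those of the 38 lists (485 of 500 genes are in the table), the 10 highest and 10 lowest called ratios of KO over WT among genes in at least 10% of the T cells of the higher library, the 15 highest ratios of T cells over all other cells, and the 10 leading genes of each class. A few list genes are not reported here. Other cell types: NK cells had at least 2 of Ncr1, Klrb1c and Klre1 and no Cd3 gene, B cells at least 2 of Cd79a, Cd79b and Ms4a1, and FAPs Pdgfra with Dcn. Doublets were called again with Scrublet (scanpy 1.11.5). Python 3.11.15, numpy 2.4.6, scipy 1.17.1 and matplotlib 3.10.9 were used. Alternatives covered the Cd3 rule, depth, thinning, doublets, UMI minimum, denominator and the mean over cells. No test between genotypes was possible with 1 library each.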

Additional observations from a re-analysis of the deposited data

How the results depend on the processing

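Of the results that answer a comparison, 190 values under an alternative stayed within the interval of the main value, within 0.3 of a list median that had no interval, or within 1.5 times a main count, and 20 moved outside it. In 19 the sign changed, each time of a value whose interval included 0. Thinned to 1000 UMIs, the difference in the share of Treg-like cells was -1.45 points and of Cd4+ cells -1.56, against 2.62 and 5.13. The alternatives that left out mixed cells, cells of over 15000 UMIs or gamma-delta-like cells, that thinned to 2000 UMIs, or that defined gamma-delta-like cells otherwise, were chosen after seeing the data. Thinned to 1000 UMIs, the cells without a class pattern differed by 20.7 points, since fewer cells then show a class gene. With at least 50 UMIs, 72 genes were called higher and 97 lower, and with at least 5 UMIs 340 and 388, as the number of genes tested changes. The innate-like T list had a median log2 ratio of 1.29 over all T cells. The median was 0.49 as a mean over cells, 0.042 at 50 UMIs and 1.74 without T cells of over 15000 UMIs. It was 0.83 without gamma-delta-like cells and 0.82 without mixed cells. The median of dendritic cell markers was 2.43 as a mean over cells, 2.96 without the large and 3.67 without the gamma-delta-like cells. Without the mixed cells it was 1.48, from Cd74 alone. The interferon list was at 0.49 as a mean over cells and 0.48 without large cells, and the proliferation list at -0.50 and -0.41, against 0.26 and 0.23 over all T cells. The median for antigen presentation class I was -0.090 and for mature muscle markers 1.50 without gamma-delta-like cells. The cause was not tested where none is given. No paired analysis was possible because there is 1 library per genotype. With 71 and 73 T cells, and 6 gamma-delta-like cells in the KO-labelled library, depth limits levels within a class, and neither the mice behind the cells nor the yield of T cells from the tissue can be told apart from the genotype.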
